A study of Mus musculus with 18 samples.

Results

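The genes of the 2 antigen presentation pathways of the mouse major histocompatibility complex (MHC) were followed across 18 libraries of colorectal tissue. They were chosen by name alone, as every gene whose symbol starts with H2-, together with 16 named genes that supply or load the MHC molecules. Of the 10897 genes measured, 38 met this rule: 24 H2- genes and 14 of the 16 others. No row was measured for Ciita and Nlrc5, the master activators of class II and class I transcription, so neither is analysed here. Class I and its loading pathway hold 30 of the 38 genes and class II holds 7. The remaining gene, H2-Ke6, encodes a hydroxysteroid dehydrogenase and carries its H2 name only because it lies in the complex.

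MHC class I molecules show peptides from inside the cell to cytotoxic T cells and are made by nearly all nucleated cells. A class I heavy chain pairs with beta-2-microglobulin, and its peptide is cut by the proteasome, carried into the endoplasmic reticulum by the TAP transporter and loaded with the help of tapasin, calreticulin and calnexin. Class II molecules show peptides from endosomes to helper T cells and are made mainly by dendritic cells, macrophages and B cells, and by intestinal epithelium when interferon gamma is present. Interferon gamma raises both pathways through transcription factors that include IRF1. Beside the classical heavy chains of class I, the mouse carries many non-classical ones in the Q, T and M regions, and H2-T3, the TL antigen, is known as a product of intestinal epithelium.

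The mice were male C57BL/6J animals of 10 weeks, per the labels, with 6 libraries in each of 3 groups and all libraries in 1 batch. The sample characteristics give the group Control as wild-type specific pathogen-free (SPF) mice with colorectal cancer induced by AOM (azoxymethane, a colon carcinogen). Both GF-AOM and GF-AOMS are given there as germ-free (GF) animals that received AOM, the latter with exposure to cigarette smoke in addition. The treatment protocol instead calls the first group a normal control, gives AOM to the second, and AOM with smoke to the third, and the growth protocol keeps the mice in an SPF facility. Smoke separates GF-AOMS from GF-AOM under either reading. What separates Control from both of them is left unsettled by the labels, and group names are used throughout. Tumour and normal tissue are not told apart in the labels, and in whole tissue fewer cells of a type and less RNA per cell cannot be told apart.

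Levels are given as CPM, the counts of a gene per M counts of its library (M for mega) after scaling for library composition, and differences as fitted log2 differences with their standard error (SE). A gene was called when its edgeR p, adjusted over all 10897 genes by Benjamini-Hochberg, was under 0.05. Both comparisons with Control share the same 6 Control libraries. Libraries held 48.95 to 79.23 M counts, and their composition factors ran from 0.721 to 1.16. All 7 epithelial markers listed for the labelled tissue were measured, which by itself cannot tell parts of the gut apart. One difference among the Control libraries bears on what follows. Hoxa13, a homeobox gene of the distal hindgut, stood at 42.0 and 38.7 CPM in Control replicates 1 and 2, while the other 4 Control libraries, replicates 3 to 6, reached no more than 3.05 CPM. GF-AOM and GF-AOMS libraries ran from 24.7 to 53.5 CPM.

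Promoter windows from RefSeq (build GRCm38.p6, 250 bases before to 50 after the start of transcription) were found for 29 of the 38 genes. The next 2 windows belong to H2-Q2 at chr17:35342057-35342356 (plus strand) and H2-T3 at chr17:36190102-36190401 (minus strand), the class I genes that, like H2-Q1, were high in the same 4 Control libraries. No window was found for H2-Q1. All sequences run 5′ to 3′ along the gene, and capitals mark any match, on either strand, to the 5 short promoter motifs that are spelled out after the windows of H2-K1 and H2-D1. The motifs were chosen after the windows were seen.
H2-Q2: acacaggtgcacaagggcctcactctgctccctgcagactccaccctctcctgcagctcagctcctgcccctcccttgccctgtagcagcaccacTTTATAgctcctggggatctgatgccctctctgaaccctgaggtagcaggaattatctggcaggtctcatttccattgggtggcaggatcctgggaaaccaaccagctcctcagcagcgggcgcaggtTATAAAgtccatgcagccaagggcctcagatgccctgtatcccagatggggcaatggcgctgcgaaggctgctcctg
H2-T3: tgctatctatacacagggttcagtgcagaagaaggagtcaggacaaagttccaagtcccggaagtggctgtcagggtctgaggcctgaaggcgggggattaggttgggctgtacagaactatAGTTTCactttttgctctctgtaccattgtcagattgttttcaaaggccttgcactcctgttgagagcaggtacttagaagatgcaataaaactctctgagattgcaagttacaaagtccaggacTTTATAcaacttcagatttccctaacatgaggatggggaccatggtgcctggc

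The classical heavy chains H2-K1 at chr17:34000298-34000597 (minus strand) and H2-D1 at chr17:35262844-35263143 (plus strand) are shown for comparison. Levels of H2-K1, H2-D1, H2-Q2 and H2-T3 all overlapped between groups. Control replicates 3 to 6, the highest libraries for H2-Q2 and H2-T3, lay among the others for H2-K1 and H2-D1.
H2-K1: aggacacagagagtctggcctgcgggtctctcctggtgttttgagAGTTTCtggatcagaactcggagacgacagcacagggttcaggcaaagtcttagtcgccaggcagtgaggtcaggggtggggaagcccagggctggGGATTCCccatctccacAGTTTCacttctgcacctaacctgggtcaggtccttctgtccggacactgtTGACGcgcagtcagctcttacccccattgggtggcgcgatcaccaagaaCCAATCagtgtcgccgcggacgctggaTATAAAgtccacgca
H2-D1: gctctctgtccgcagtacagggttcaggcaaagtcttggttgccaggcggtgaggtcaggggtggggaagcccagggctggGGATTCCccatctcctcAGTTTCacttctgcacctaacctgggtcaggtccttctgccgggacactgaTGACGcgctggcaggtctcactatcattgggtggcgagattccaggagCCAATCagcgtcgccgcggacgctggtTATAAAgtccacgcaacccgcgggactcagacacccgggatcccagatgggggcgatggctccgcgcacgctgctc

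GGATTCC, the core of the NF-kB site of the class I enhancer, was found in 4 of the 29 windows (H2-K1, H2-D1, H2-Q6 and H2-Q7), and in 3.79% of all 32851 windows of the same length. The motif GATTGG, the core of the Y box, stood in 17 of the 29 windows against 16.1% of all windows, and in neither H2-Q2 nor H2-T3. It stood in 6 of the 10 windows of non-classical class I genes, and H2-Q10 and H2-M3 lacked it too. The core of the X2 box, TGACG, stood in 12 of 29 against 20.8% of all windows, and also in neither H2-Q2 nor H2-T3. It was in 4 of the 10 non-classical class I windows, so most of these lacked it. The first part of the interferon-stimulated response element, AGTTTC, stood in 12 of 29 windows against 15.8% of all, and was present in H2-T3, H2-K1 and H2-D1 but not in H2-Q2. The letters of the TATA box, TATAAA, were found on either strand in all of these 4 windows, and in 9 of 29 against 13.6% of all. In H2-T3 the only match was on the opposite strand, and in H2-K1 it lay after the stated start of transcription. A match describes letters in these windows and shows no binding, and a missing match says only that these letters are absent there.

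The class II chain H2-Aa at chr17:34287774-34288073 (minus strand) and the transporter gene Tap1 at chr17:34187306-34187605 (plus strand) stand for the other promoter types. In H2-Aa the X2 core matches on both strands at overlapping positions, upstream of the Y box core, which is the order of the X and Y boxes of class II genes. The window of Tap1 shares 275 bases with that of Psmb9 on the opposite strand.
H2-Aa: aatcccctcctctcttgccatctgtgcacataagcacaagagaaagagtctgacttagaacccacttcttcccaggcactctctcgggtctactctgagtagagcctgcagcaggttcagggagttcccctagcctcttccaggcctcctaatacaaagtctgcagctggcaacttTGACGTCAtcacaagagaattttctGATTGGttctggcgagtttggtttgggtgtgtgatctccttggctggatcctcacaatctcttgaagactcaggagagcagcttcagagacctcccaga
Tap1: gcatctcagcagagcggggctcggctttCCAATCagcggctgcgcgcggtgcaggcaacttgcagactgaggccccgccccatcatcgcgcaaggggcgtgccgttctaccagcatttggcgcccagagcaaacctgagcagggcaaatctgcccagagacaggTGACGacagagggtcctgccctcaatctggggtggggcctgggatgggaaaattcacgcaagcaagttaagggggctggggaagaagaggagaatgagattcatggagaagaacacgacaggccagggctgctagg

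Across the 3 comparisons 1 of the 38 genes was called in 1 comparison. H2-Q1, a non-classical class I heavy chain, fell in GF-AOMS against Control, and no other gene of either pathway passed the test. In GF-AOM against Control 0 of 38 were called, against 0.00918% of all genes and 0% in the lower direction. In GF-AOMS against GF-AOM 0 of 38 were called, against 0% of all genes in total and in the lower direction. In GF-AOMS against Control 1 of 38 was called, lower, against 0.734% of all genes and 0.624% in that direction.

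These counts moved with single libraries. Without Control replicate 2, H2-Q1 and H2-Q2 were called in GF-AOM against Control and H2-Q1, H2-Q2 and H2-T3 in GF-AOMS against Control. Without Control replicate 1, H2-Q1 was called in GF-AOM and H2-Q1 and H2-Q2 in GF-AOMS. Without the 5 libraries with a composition factor under 0.9, a choice made after seeing the data, H2-Q1 and H2-Q2 were called in GF-AOM against Control and H2-Q1, H2-Q2, H2-Q10 and H2-T3 in GF-AOMS against Control. All of these were lower than Control. Without the 4 Control libraries low in Hoxa13, also chosen after seeing the data, 0 of 38 were called in either comparison.

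At an unadjusted p under 0.05 by the same test, 5 of 38 genes differed in GF-AOM against Control, 4 lower and 1 higher. All genes gave 15.7%, with 9.74% lower and 5.98% higher, so the genes of the 2 pathways stood near the background. In GF-AOMS against Control there were 8 of 38, 5 lower and 3 higher, against 16.2% of all genes, with 9.25% lower and 6.93% higher. In GF-AOMS against GF-AOM there were 0 of 38, against 1.09% of all genes, with 0.459% lower and 0.633% higher. The median log2 difference of the 38 genes was 0.02, 0.07 and 0.02 in GF-AOM against Control, GF-AOMS against Control and GF-AOMS against GF-AOM. Over all genes it was -0.00, 0.01 and 0.01.

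**Figure D1:**
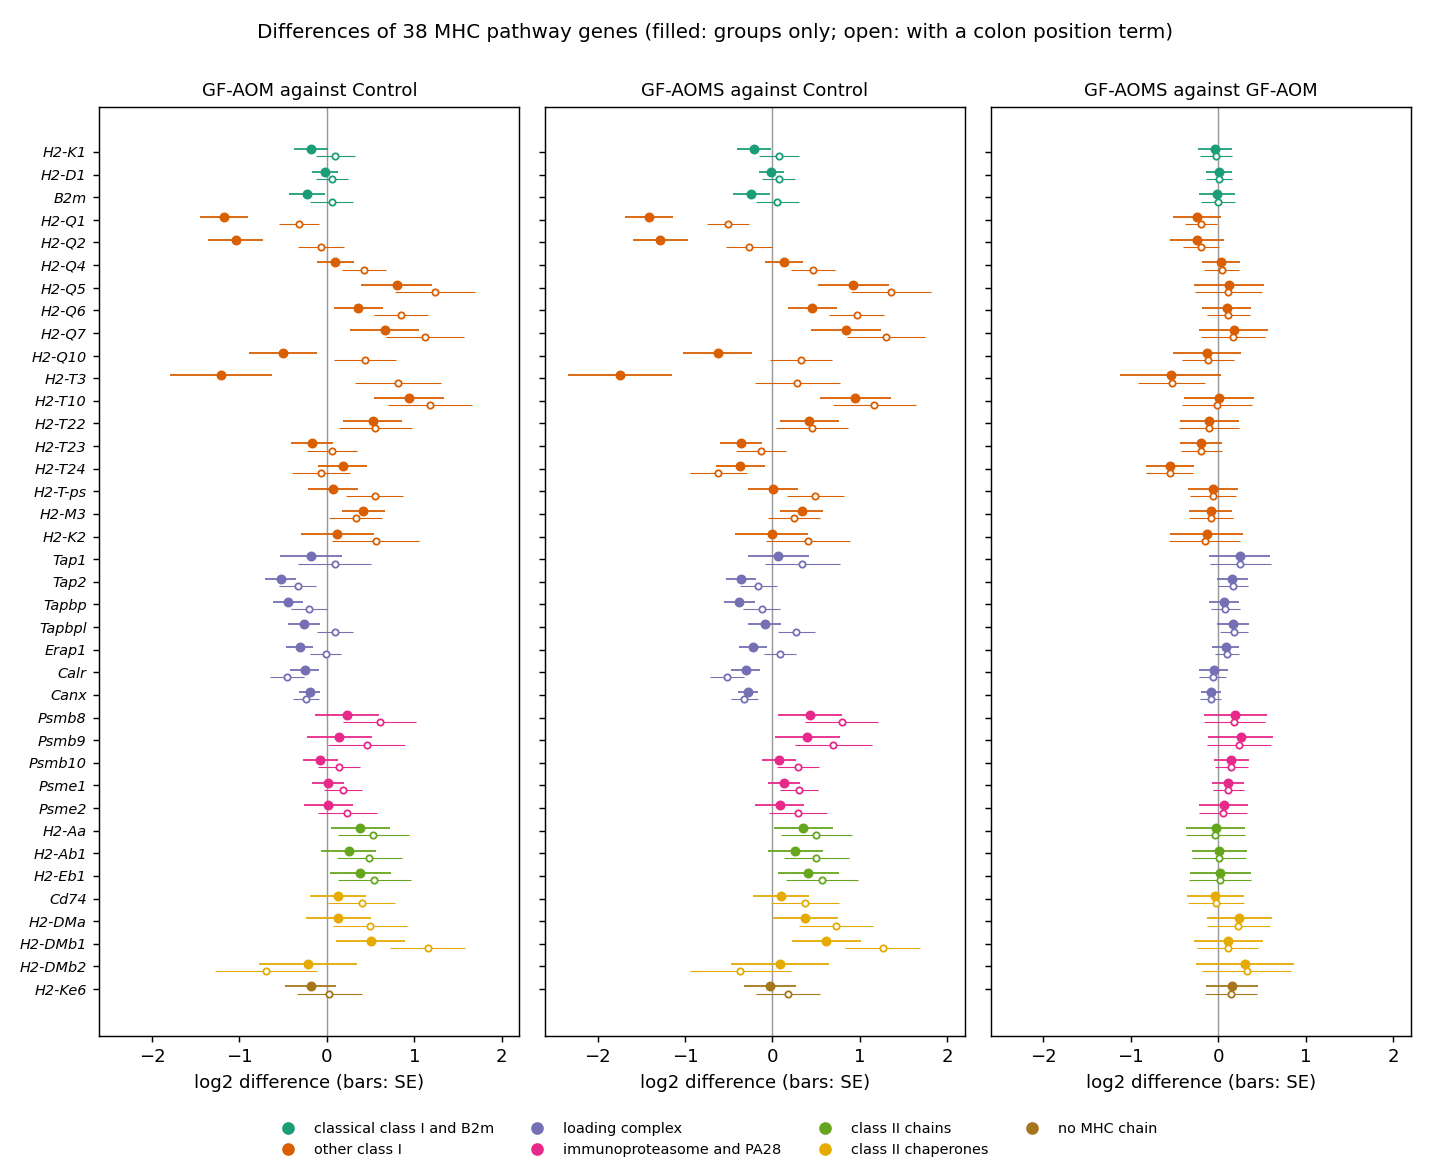
Fitted log2 differences of the 38 genes in each comparison, by class, with bars of 1 SE. Filled points come from the fit on groups alone and open points from a fit that adds the Hoxa13 and Hoxb13 score, in which H2-Q1, H2-Q2 and H2-T3 move towards or past 0 in both comparisons with Control. In GF-AOMS against GF-AOM the values farthest from 0 are those of H2-T24 and H2-T3.

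H2-Q1 (ENSMUSG00000079507, chr17:35320405-35325099 on the plus strand of GRCm38) is a class I heavy chain gene of the Q region. Its levels in Control replicates 1 to 6 were 21.7, 16.3, 38.1, 65.9, 43.2 and 51.0 CPM. In GF-AOM they were 13.4, 16.4, 16.3, 23.5, 11.1 and 24.01 CPM. In GF-AOMS they were 15.2, 16.2, 15.0, 12.8, 15.8 and 13.6 CPM. Control replicates 3 to 6 lay above every other library, and Control replicates 1 and 2 lay inside the range of GF-AOM. All 6 GF-AOMS libraries were below all 6 Control libraries, with the lowest Control at 16.3 and the highest GF-AOMS at 16.2 CPM. H2-Q1 was the only one of the 38 genes without overlap there, against 0.798% of all genes. In GF-AOMS against GF-AOM 0 of the 38 were without overlap, against 0.0642% of all genes.

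The group means of H2-Q1 were 39.4 ± 18.4, 17.5 ± 5.26 and 14.8 ± 1.33 CPM (SD, n = 6) in Control, GF-AOM and GF-AOMS. H2-Q1 was 2.67-fold lower in GF-AOMS than in Control (log2 difference -1.41, SE 0.27, edgeR adjusted p = 0.0304). In GF-AOM it was 2.26-fold lower than in Control (-1.17, SE 0.27), lower than the Control mean in 6 of 6 libraries, and did not pass the test (edgeR adjusted p = 0.0866). Between GF-AOMS and GF-AOM the difference was -0.24 (SE 0.27, 95% interval -0.81 to 0.33). In the authors' FPKM the H2-Q1 groups overlapped, with Control replicate 2 at 4.42 and GF-AOMS replicate 5 at 5.34.

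The call of H2-Q1 was lost when any 1 of Control replicates 3, 4, 5 and 6 or GF-AOMS replicates 1, 2, 4, 5 and 6 was left out, with adjusted p of 0.0567 to 0.0884, and stood when any other single library was left out. With a score of Hoxa13 and Hoxb13 in the model the difference was -0.51 (SE 0.24, edgeR adjusted p = 0.963), and without the 4 Control libraries low in Hoxa13 it was -0.36 (SE 0.25, adjusted p = 0.999).

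H2-Q2, the neighbouring Q region heavy chain gene at chr17:35342242-35346762, had the same order of libraries among the Control samples. Its Control levels were 106.9, 77.4, 216.4, 343.2, 217.4 and 255.6 CPM for replicates 1 to 6. GF-AOM libraries ran from 55.6 to 156.7 CPM with a median of 86.8, and GF-AOMS libraries from 60.5 to 110.1 CPM with a median of 81.7. Control replicates 3 to 6 again exceeded all other libraries, and replicates 1 and 2 lay inside the range of the other groups. The log2 difference of H2-Q2 from Control was -1.04 (SE 0.31, edgeR adjusted p = 0.148) in GF-AOM and -1.28 (SE 0.31, adjusted p = 0.0657) in GF-AOMS. With the Hoxa13 and Hoxb13 score in the model these became -0.07 (SE 0.26) and -0.27 (SE 0.27).

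H2-T3, the TL antigen of intestinal epithelium, lies at chr17:36185572-36190287 on the minus strand. Control replicates 1 to 6 gave 17.2, 4.71, 63.6, 74.0, 69.6 and 62.7 CPM. GF-AOM libraries ran from 7.37 to 38.9 CPM (median 15.1) and GF-AOMS libraries from 4.00 to 32.2 CPM (median 12.5). Control replicates 3 to 6 exceeded all other libraries here too, and Control replicate 2 was among the lowest of the 18. H2-T3 differed from Control by -1.21 (SE 0.58, edgeR adjusted p = 0.324) in GF-AOM and by -1.75 (SE 0.59, adjusted p = 0.179) in GF-AOMS. With the Hoxa13 and Hoxb13 score the sign turned, to 0.81 (SE 0.49) and 0.28 (SE 0.48), and neither value passed the test.

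Reads can be shared between such similar genes. Of the 50-base windows of H2-Q1 transcripts, 85.0% occurred in no other gene, and of those of H2-Q2 83.9% did, with each being the closest match of the other. H2-T3 was distinct, with 99.1% of its windows found nowhere else. The deposited table types H2-Q1 as a retained intron transcript, while GENCODE M21 types the gene as protein coding.

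**Figure D2:**
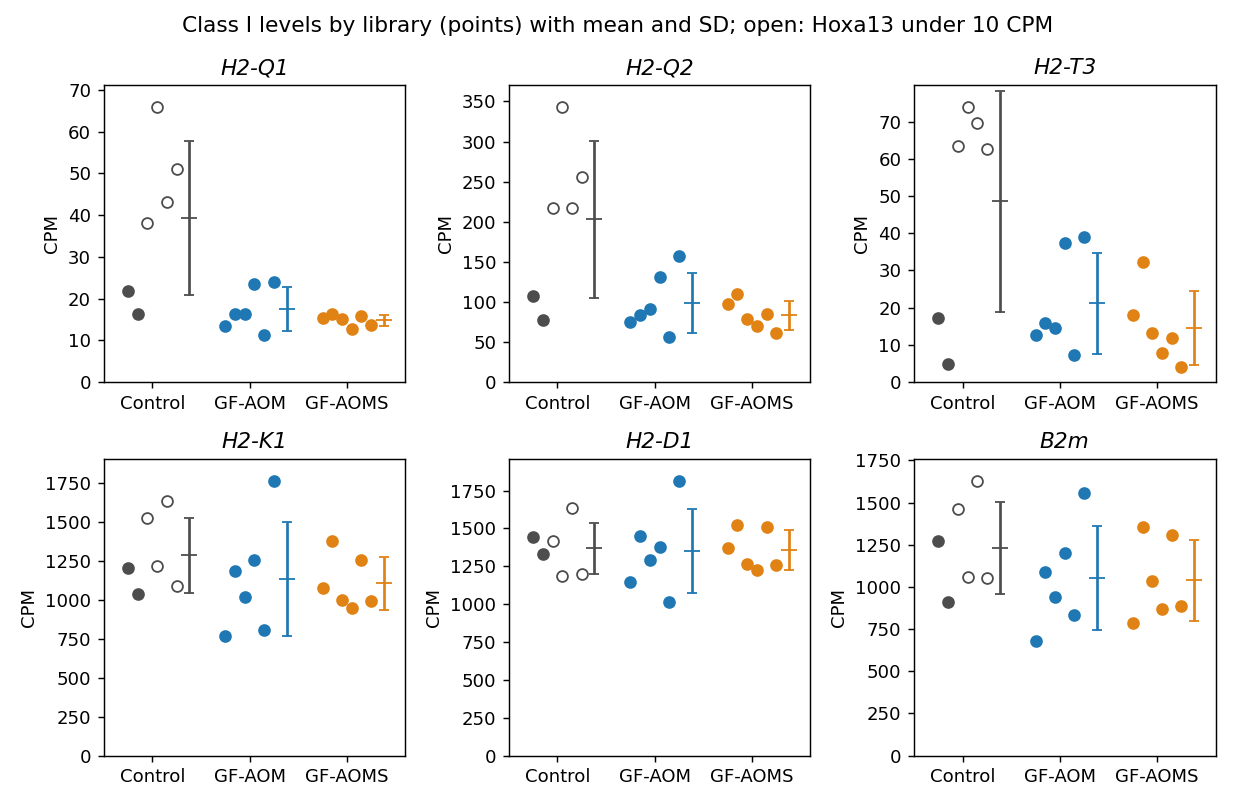
Levels in CPM of H2-Q1, H2-Q2, H2-T3, H2-K1, H2-D1 and B2m in each library (points, replicates 1 to 6 from left to right), with group mean and SD beside them. Open points are the 4 Control libraries with Hoxa13 under 10 CPM, which are the 4 highest libraries for H2-Q1, H2-Q2 and H2-T3 but lie among the others for H2-K1 and H2-D1. For B2m, Control replicate 5 is the highest library, at 1629.8 CPM, and the other open points lie among the rest.

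The classical heavy chains and beta-2-microglobulin were abundant in every library, and none of them was called in any comparison. H2-K1 ran from 1041 to 1638 CPM in Control (median 1213), from 770.7 to 1765 in GF-AOM (median 1103) and from 950.8 to 1376 in GF-AOMS (median 1035). H2-D1 ran from 1183 to 1636 CPM in Control (median 1377), from 1017 to 1816 in GF-AOM (median 1336) and from 1223 to 1523 in GF-AOMS (median 1318). B2m ran from 911.0 to 1629.8 CPM in Control (median 1165), from 681.9 to 1557 in GF-AOM (median 1014) and from 786.9 to 1355 in GF-AOMS (median 962.0). All groups overlapped for these genes. Their 9 differences lay between -0.24 and 0.01. For H2-D1 the 95% interval was -0.33 to 0.29 in GF-AOM and -0.32 to 0.30 in GF-AOMS against Control, and for B2m in GF-AOMS against Control it was -0.68 to 0.20.

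Set per length within each library, H2-Q1, H2-Q2 and H2-T3 together reached 6.48, 4.92, 12.7, 23.7, 11.8 and 18.9% of the summed FPKM of H2-K1 and H2-D1 in Control replicates 1 to 6. In GF-AOM this share was 4.79 to 8.51% (median 6.15%) and in GF-AOMS 4.11 to 6.41% (median 5.22%). The 3 genes were summed because they are high in Control replicates 3 to 6, so the order of libraries in this share is a description of their size only.

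Of the other 12 non-classical class I genes none was called. H2-T23, the Qa-1 molecule that presents signal peptides to natural killer cell receptors, ran from 390.6 to 554.6 CPM in Control, 251.7 to 598.9 in GF-AOM and 241.4 to 579.7 in GF-AOMS. Its differences from Control were -0.17 (SE 0.24) in GF-AOM and -0.36 (SE 0.24) in GF-AOMS. H2-T22, whose product is a ligand of some gamma delta T cells, had medians of 160.9, 185.2 and 166.1 CPM in Control, GF-AOM and GF-AOMS. Its GF-AOM replicate 6 (468.6 CPM) and GF-AOMS replicate 2 (467.4 CPM) stood far above the other libraries. GF-AOMS replicate 1 (321.2 CPM), GF-AOM replicate 3 (314.6 CPM) and Control replicate 2 (240.9 CPM) came next, and the rest reached at most 192.8 CPM. These are the 5 libraries with a composition factor under 0.9, and the part of that factor was not tested. Only 46.5% of H2-T22 windows and 49.6% of H2-T10 windows of 50 bases occurred in no other gene, so these levels are uncertain.

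Among the remaining 10, H2-T10, H2-Q5 and H2-Q7 lay highest relative to Control, with log2 differences of 0.94, 0.80 and 0.66 in GF-AOM and 0.95, 0.93 and 0.84 in GF-AOMS, and none passed the test. GENCODE M21 types H2-Q5 and H2-T10 as polymorphic pseudogenes and H2-T-ps and H2-K2 as pseudogenes. Of the 50-base windows of H2-Q5, 63.55% occurred in no other gene and 25.5% were shared with H2-Q7. For these 3 genes too GF-AOM replicate 6 and GF-AOMS replicate 2 were the highest. H2-Q7, for example, had 246.0 and 274.3 CPM in these libraries, against 38.95 to 141.4 CPM in Control. These 2 libraries also had low composition factors, at 0.831 and 0.721, and their part in the result was not tested. The 7 others (H2-Q4, H2-Q6, H2-Q10, H2-T24, H2-T-ps, H2-M3 and H2-K2) had differences from Control between -0.63 and 0.46. The lowest of these values was that of H2-Q10 in GF-AOMS, which ran from 9.31 to 30.3 CPM in Control, 6.31 to 27.3 in GF-AOM and 7.16 to 24.3 in GF-AOMS. H2-T24 had the smallest p of all 38 genes in GF-AOMS against GF-AOM, with a difference of -0.55 (SE 0.28, unadjusted p = 0.0645 by the edgeR test).

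The peptide loading genes stood below Control, with 7 of 7 lower in GF-AOM and 6 of 7 in GF-AOMS, none of them called. Their median difference was -0.26 in GF-AOM and -0.28 in GF-AOMS, against -0.00 and 0.01 over all genes, of which 5504 and 5335 of 10897 were lower. With the Hoxa13 and Hoxb13 score in the model, 5 of 7 were lower in GF-AOM and 4 of 7 in GF-AOMS. In that model Tapbpl was at 0.09 and 0.27, Tap1 at 0.09 and 0.34, and Erap1 at -0.01 and 0.09, in GF-AOM and GF-AOMS. Tap2 was at -0.33 and -0.16 there, and Tapbp at -0.20 and -0.12. Tap2, a subunit of the peptide transporter, was the 1 of 38 genes without overlap in GF-AOM against Control, against 0.762% of all genes. Its Control levels were 48.99, 40.1, 54.8, 41.1, 66.5 and 40.5 CPM, and its GF-AOM levels 31.9, 38.03, 26.1, 34.4, 34.9 and 37.4 CPM. In GF-AOMS they were 27.1, 41.2, 39.5, 29.3, 57.3 and 32.7 CPM, inside the Control range in replicates 2 and 5. Tap2 differed from Control by -0.53 (SE 0.17, edgeR adjusted p = 0.192) in GF-AOM and by -0.36 (SE 0.17, adjusted p = 0.312) in GF-AOMS. In FPKM the groups overlapped.

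Tapbp, which encodes tapasin, the bridge between transporter and heavy chain, ran from 146.9 to 281.0 CPM in Control, 121.3 to 184.4 in GF-AOM and 120.4 to 232.0 in GF-AOMS. Its differences from Control were -0.44 (SE 0.18) and -0.38 (SE 0.18). Calr and Canx, the lectin chaperones calreticulin and calnexin of all newly made glycoproteins, differed by -0.25 (SE 0.17) and -0.20 (SE 0.12) in GF-AOM. In GF-AOMS they differed from Control by -0.31 (SE 0.17) and -0.28 (SE 0.12). Tapbpl, a peptide editor, and Erap1, the trimming peptidase, lay between -0.31 and -0.09 in these comparisons. Tap1, the other transporter subunit, differed by -0.18 (SE 0.35) in GF-AOM and 0.07 (SE 0.35) in GF-AOMS, and ran from 45.5 to 201.7 CPM over the 18 libraries.

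The immunoproteasome subunits Psmb8, Psmb9 and Psmb10 and the PA28 activator genes Psme1 and Psme2 were within 0.43 of Control in log2, with none called. Psmb10 ran from 133.1 to 191.7 CPM in Control, 112.4 to 212.1 in GF-AOM and 111.5 to 240.6 in GF-AOMS, and its difference was -0.08 (SE 0.20) and 0.07 (SE 0.20). Psme1 had medians of 153.5, 143.1 and 146.1 CPM and Psme2 of 187.6, 167.9 and 167.1 CPM in Control, GF-AOM and GF-AOMS. In each group 1 or 2 libraries stood above the rest. Control replicate 5, GF-AOM replicate 6 and GF-AOMS replicates 2 and 5 were the 4 highest libraries for Psmb8, with 197.3, 300.2, 360.8 and 202.9 CPM, against 83.6 to 157.1 CPM in the other 14.

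Each immunoproteasome subunit replaces a constitutive one, and their ratio in FPKM within a library was compared between libraries. The size of such a ratio depends on the gene lengths used for FPKM, so it does not measure how far 1 subunit replaces the other. In counts, the Control means of Psmb8 and Psmb5 were 121.5 and 124.7 CPM. Psmb8 per Psmb5 ran from 0.164 to 0.500 over the 18 libraries and Psmb9 per Psmb6 from 0.128 to 0.506. Psmb10 per Psmb7 ran from 2.02 to 4.53. Group medians for Psmb9 per Psmb6 were 0.241, 0.222 and 0.225, and the highest libraries were Control replicate 5 (0.506) and GF-AOMS replicate 5 (0.473).

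**Figure D3:**
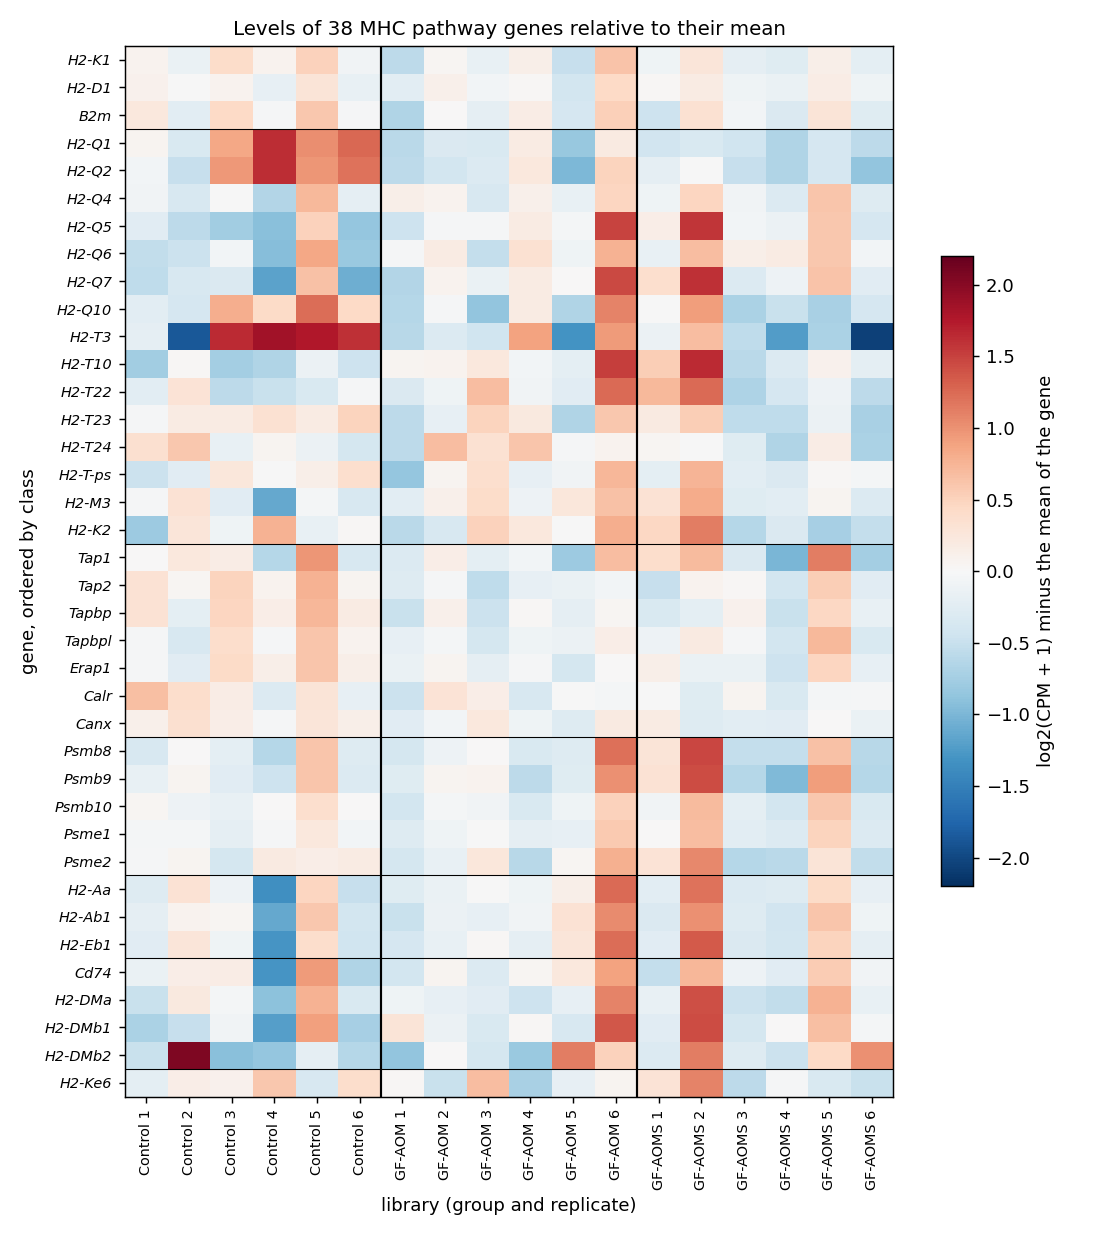
Level of each of the 38 genes in each library as log2(CPM + 1) minus the gene's mean over the 18 libraries, with genes ordered by class and libraries by group. H2-Q1, H2-Q2 and H2-T3 are high in Control 3 to 6, whereas class II, immunoproteasome and several T and Q region genes are high together in GF-AOM 6 and GF-AOMS 2.

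The class II chains were expressed in all groups with overlapping levels, and none passed the test. H2-Aa, the alpha chain of I-A, ran from 138.7 to 497.0 CPM in Control (median 310.9), from 298.0 to 849.7 in GF-AOM (median 343.9) and from 289.2 to 819.5 in GF-AOMS (median 309.2). Its beta chain H2-Ab1 had medians of 270.8, 264.9 and 248.6 CPM, and H2-Eb1, a beta chain of I-E, of 277.9, 298.1 and 268.0 CPM. The lowest of the 18 libraries for all 3 chains was Control replicate 4, and the highest were GF-AOM replicate 6 and GF-AOMS replicate 2.

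In log2, H2-Aa, H2-Ab1 and H2-Eb1 differed from Control by 0.38 (SE 0.34), 0.25 (SE 0.31) and 0.38 (SE 0.35) in GF-AOM. In GF-AOMS they differed by 0.35 (SE 0.34), 0.26 (SE 0.31) and 0.41 (SE 0.35). By group medians H2-Aa and H2-Eb1 in GF-AOM were above Control by less than this, while H2-Ab1 in GF-AOM and all 3 chains in GF-AOMS lay below Control. The chains kept their proportions: H2-Eb1 per H2-Ab1 in FPKM ran from 1.25 to 1.85 and H2-Aa per H2-Ab1 from 0.721 to 1.01 over the 18 libraries. As background, C57BL/6 mice are known to lack a functional alpha chain of I-E.

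Cd74, the invariant chain that holds class II molecules until they reach endosomes, was the second most abundant of the 38 genes per length, with a mean of 554.4 FPKM, after B2m with 1129.9 FPKM. It ran from 407.4 to 1909 CPM in Control (median 1009), from 755.6 to 1847 in GF-AOM (median 1035) and from 692.2 to 1652 in GF-AOMS (median 934.3). Its differences from Control were 0.13 (SE 0.32) and 0.10 (SE 0.32). The peptide exchange factor genes H2-DMa and H2-DMb1 differed from Control by 0.13 (SE 0.37) and 0.50 (SE 0.40) in GF-AOM and by 0.38 (SE 0.37) and 0.62 (SE 0.40) in GF-AOMS. Over class II as a whole, 6 of 7 genes were higher than Control in GF-AOM and 7 of 7 in GF-AOMS, with medians of 0.25 and 0.35 and none called. Over all 10897 genes 5393 and 5562 were higher. Single libraries moved these values. Without GF-AOM replicate 6 the differences in GF-AOM were 0.06 for H2-Aa, -0.01 for H2-Ab1, 0.07 for H2-Eb1, -0.08 for Cd74 and -0.20 for H2-DMa. Without GF-AOMS replicate 2 those in GF-AOMS were 0.05 for H2-Aa, 0.03 for H2-Ab1, 0.05 for H2-Eb1, -0.05 for Cd74 and 0.01 for H2-DMa. Without Control replicate 4 Cd74 was at -0.03 in GF-AOM and -0.06 in GF-AOMS.

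H2-DMb2, the second beta chain gene of the exchange factor, was highest in a library where H2-DMb1 was not. Its level was 43.0 CPM in Control replicate 2 and 4.62 to 8.26 CPM in the other 5 Control libraries. In GF-AOM it ran from 4.81 to 22.4 CPM and in GF-AOMS from 6.65 to 22.2 CPM. H2-DMb2 per H2-DMb1 in FPKM was 1.23 in Control replicate 2 and 0.0784 to 0.576 in the other 17 libraries. Of the 50-base windows of H2-DMb2, 74.1% occurred in no other gene and 21.2% were shared with H2-DMb1. H2-Ke6, the dehydrogenase gene, had medians of 18.2, 15.8 and 14.7 CPM and differences from Control of -0.19 (SE 0.30) and -0.03 (SE 0.30). Of its windows only 29.5% occurred in no other gene.

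With the score of Hoxa13 and Hoxb13 in the model, 29 of the 38 genes lay above Control in GF-AOM and 29 in GF-AOMS, with medians of 0.28 and 0.30. Over all genes 50.8% and 52.7% lay above Control, with medians of 0.01 and 0.02. No gene of the whole table was called in that model. At an unadjusted edgeR p under 0.05 there were 6 of 38 in GF-AOM, against 4.29% of all genes, and 7 of 38 in GF-AOMS, against 4.66%. In both, H2-Q5, H2-Q6, H2-Q7, H2-T10 and H2-DMb1 were higher and Calr was lower, joined in GF-AOMS by H2-Q1, lower. The differences of the 5 higher genes ran from 0.85 for H2-Q6 in GF-AOM to 1.35 for H2-Q5 in GF-AOMS. H2-Q5 shared 25.5% and H2-Q6 13.95% of their 50-base windows with H2-Q7, so their counts may be linked. For H2-T10 49.6% of windows occurred in no other gene. GF-AOM replicate 6 and GF-AOMS replicate 2 were the highest libraries for H2-Q5, H2-Q7, H2-T10 and H2-DMb1. Only 2 Control libraries resembled the other groups in Hoxa13, so few Control libraries stand beside the others at a like level in that model.

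The wider pathway was followed through listed genes outside the 38, and in every list and comparison 0 were called by edgeR. All 10 listed genes of interferon gamma signalling, among them Irf1, were below Control in both GF-AOM and GF-AOMS, with medians of -0.22 and -0.28. Over all 10897 genes 5504 and 5335 were lower. At an unadjusted edgeR p under 0.05 there were 1 and 2 of the 10, against 15.7% and 16.2% of all genes. For the genes of these lists, the direction with the Hoxa13 and Hoxb13 score in the model was not examined. The smallest p in GF-AOM was that of Irf2, a repressor of interferon responses (-0.53, SE 0.21, edgeR adjusted p = 0.255), and in GF-AOMS that of Irf9 (-0.45, SE 0.19, adjusted p = 0.268). Of 16 listed interferon gamma inducible GTPase genes 11 were measured. All 11 were below Control in GF-AOM (median -0.35), and in GF-AOMS 6 were below and 5 above (median -0.03), with 0 at an unadjusted p under 0.05 in either comparison. Their summed level was 1131 CPM in Control replicate 5 and 1741 CPM in GF-AOMS replicate 5, against 217.2 to 711.0 CPM in the other 16 libraries. Group medians of this sum were 429.3, 424.2 and 395.6 CPM in Control, GF-AOM and GF-AOMS, so those of Control and GF-AOM were close.

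The class II enhanceosome, the RFX, CREB and NF-Y factors that bind the X and Y boxes, had 6 of 7 genes measured, of which 5 lay below Control in each of GF-AOM and GF-AOMS, with medians of -0.09 and -0.06. Endosomal proteases and turnover genes had 8 of 11 measured and medians of -0.10 and -0.06. Chaperones and constitutive proteasome genes of class I had 9 of 9 measured and medians of 0.06 and 0.05. Of class I-like genes outside the complex 3 of 5 were measured, and Fcgrt, the neonatal Fc receptor, had the smallest p, at -0.42 (SE 0.16, edgeR adjusted p = 0.249) in GF-AOM and -0.51 (SE 0.16, adjusted p = 0.150) in GF-AOMS against Control. Of costimulatory genes 4 of 6 were measured, and Cd274, which encodes PD-L1, lay at -0.82 (SE 0.29, adjusted p = 0.215) and -0.77 (SE 0.29, adjusted p = 0.224).

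Markers of the cells that the tissue could hold were set beside these levels. None of their genes was called by edgeR. An unadjusted edgeR p under 0.05 against Control was reached by 15.7% of all genes in GF-AOM and 16.2% in GF-AOMS. Epithelial markers (7 of 7 measured) were lower than Control for 6 genes in both groups, with an unadjusted p under 0.05 for 5 in GF-AOM and 4 in GF-AOMS. Their sums were 6529.8 to 10070.3 CPM in Control, 4462 to 6599 in GF-AOM and 5283 to 7156 in GF-AOMS. Of 7 dendritic cell markers only Itgax was measured, at 3.54 to 14.4, 6.47 to 17.2 and 4.53 to 14.5 CPM. Of 7 B cell markers only Cd79a and Cd79b were measured, with sums of 7.13 to 148.4 CPM in Control, 22.6 to 94.3 in GF-AOM and 25.1 to 74.4 in GF-AOMS. Plasma cell markers (4 of 4) were all higher than Control in both groups, with an unadjusted p under 0.05 for 4 in GF-AOM and 1 in GF-AOMS, and summed to 567.5 to 3843 CPM in Control, 3228 to 6741 in GF-AOM and 1573 to 6937 in GF-AOMS. Macrophage and monocyte markers (8 of 8) were higher than Control for 8 in GF-AOM and 4 in GF-AOMS, with 1 at such a p in each, and summed to 218.5 to 551.0 CPM in Control, 439.7 to 912.8 in GF-AOM and 352.2 to 813.3 in GF-AOMS. T and natural killer cell markers (5 of 7) were higher for 4 in both groups, with 0 at such a p, and summed to 23.8 to 50.9, 27.1 to 98.6 and 31.4 to 99.3 CPM. Endothelial markers (4 of 4) were all lower than Control in both groups, with 0 and 2 at such a p, and summed to 108.5 to 164.5, 77.9 to 178.6 and 60.3 to 127.3 CPM. Smooth muscle markers (4 of 4) were all higher in both, with 0 and 2 at such a p, and summed to 1106 to 3003, 2383 to 3756 and 1366 to 7141 CPM. Their part in the levels of the MHC genes was not tested between groups.

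Across the 18 libraries Cd74 rose with Itgax, the only 1 measured of 7 listed dendritic cell markers, and with the macrophage marker Csf1r. With no other dendritic cell marker measured, the relation with Itgax cannot be assigned to dendritic cells. Such relations were computed on log2(CPM + 1) for 8 gene pairs, of which 6 are given, with permutation p adjusted over the 8. Psmb9 with Tap1 and Cd79b with H2-DMb2 were added after their values were seen. The p of these 2 pairs are therefore no test. Their place among the 8 also lowered the adjusted p of Cd74 with Itgax and with Csf1r. Cd74 with Itgax, which encodes CD11c, gave Pearson r = 0.892 and Spearman rho = 0.862 (permutation p = 1e-05 and 2e-05, adjusted 4e-05 and 8e-05), where 1e-05 is the smallest p the permutations can give. Without the 2 libraries farthest from the median of Itgax r was 0.841, and within groups, over deviations from group means, it was 0.889. Cd74 with Csf1r, the macrophage growth factor receptor, gave r = 0.677 and rho = 0.612 (permutation p = 0.00229 and 0.00756, adjusted 0.00366 and 0.0121), and r = 0.559 without the 2 farthest. With Cd79a it gave r = 0.338 and rho = 0.395 (permutation p = 0.169 and 0.106, adjusted 0.194 and 0.121), with r = 0.0805 without the 2 farthest, and with Epcam r = -0.290 and rho = -0.137 (permutation p = 0.243 and 0.586, adjusted 0.243 and 0.586), with r = 0.175 without them. The differences between these r values were not tested.

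Tap1 with Psmb9, the pair that shares a promoter window, gave r = 0.865 and rho = 0.878 (permutation p = 2e-05 for each, adjusted 5.33e-05 and 8e-05). The part of the shared promoter window in this relation was not tested. Of the 50-base windows of Psmb9 transcripts, 4.19% were shared with Tap1. H2-DMb2 with Cd79b, a chain of the B cell receptor complex, gave r = 0.872 and rho = 0.853 (permutation p = 1e-05 and 5e-05, adjusted 4e-05 and 0.000133), and r = 0.775 without the 2 farthest libraries. Control replicate 2 was highest for both genes, at 43.0 and 88.7 CPM.

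**Figure D4:**
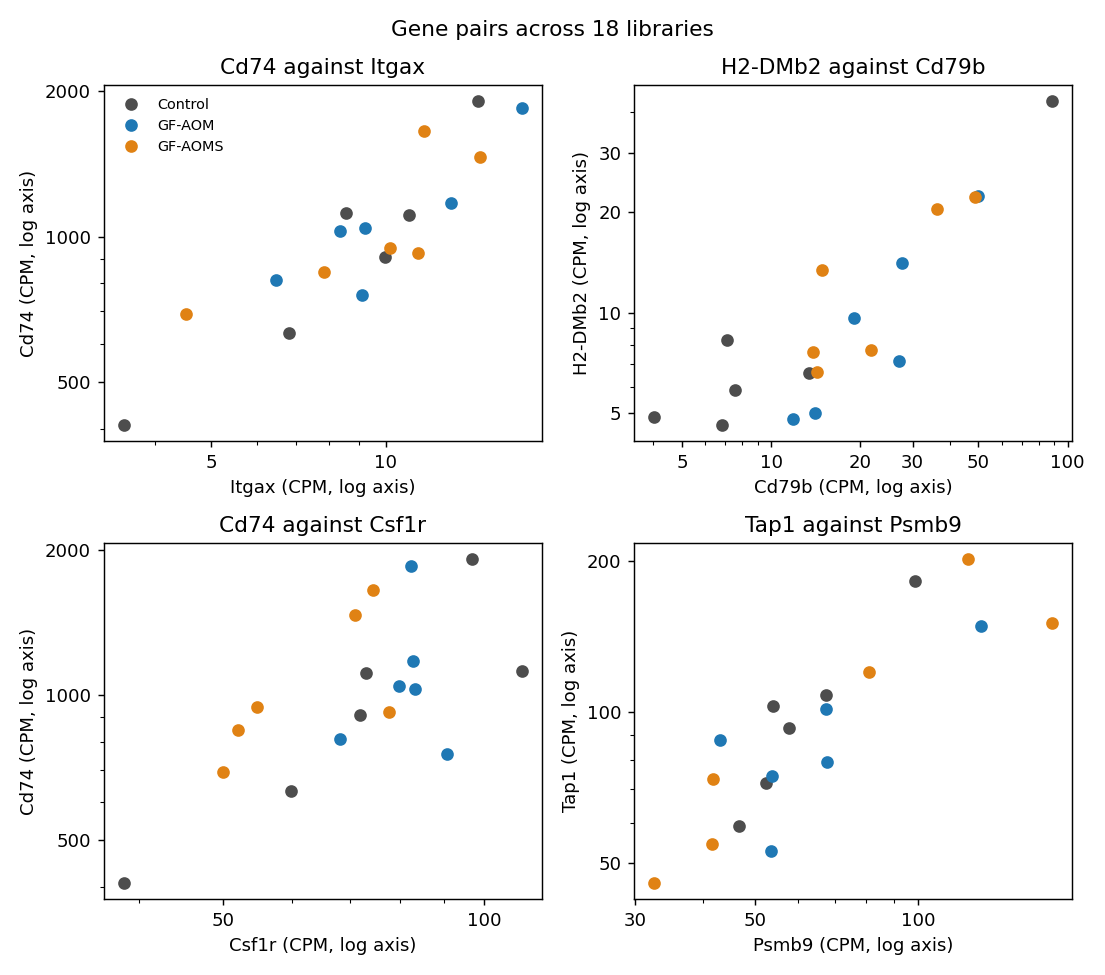
Level in CPM of 4 gene pairs in the 18 libraries on log axes, coloured by group. Cd74 rises with Itgax, H2-DMb2 with Cd79b, Cd74 with Csf1r and Tap1 with Psmb9, and the groups overlap in all 4 panels.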

How the data were processed

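Colorectal RNA of 18 libraries was sequenced after ribosomal RNA depletion with strand kept, per the labels. The submitters' processing notes name featureCounts, DESeq2 and build GRCm39, with no versions; the aligner used is not given in the sources used here. Deposited by the authors were read counts per gene and FPKM (fragments scaled by gene length and depth) for 10897 genes, per the file headers. Gene positions in the table matched GENCODE M21 (GRCm38) within 100 bases at both ends for 35 of the 38 genes, so GRCm38 positions are printed. Every gene reached 1 FPKM in at least 15 of 18 libraries, and a gene silent in a whole group is therefore not analysed here.

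Counts of all 18 libraries were fitted with edgeR 4.0.16 (R 4.3.3; TMM scaling, quasi-likelihood test, 15 residual degrees of freedom, no covariate, two-sided) with Benjamini-Hochberg adjustment over all genes and a threshold of 0.05. The fitting script was checked on simulated data. Intervals are 95%. DESeq2 1.42.0 and limma 3.58.1, other scalings, filters, a replicate block, a Hoxa13 and Hoxb13 score (the mean of their standardized log2 CPM) and leaving out libraries served as alternatives. Whether the 6 libraries of a group are from 6 separate mice is not said in words, and p-values then cover only their spread, which may be technical. Correlations used 100000 permutations, two-sided, in Python 3.11.15 with scipy 1.17.1. Of 12 listed pairs 6 were measured, and 2 of these are not reported here.

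The 38 genes, the gene lists and the Hoxa13 and Hoxb13 score were chosen with earlier results of these data known. Genes given in full were those called or without overlap in any comparison, H2-Q1, the 3 per class with the highest mean FPKM, and those with a log2 difference of at least 1. Outside the 38, genes were named from a list when called or among its 2 smallest p. Irf1, the correlated markers and other genes of the 38 were named after their values were seen. Positions are printed for some genes of chromosome 17 only.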

Additional observations from a re-analysis of the deposited data

Results flagged for a closer look

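In 11 of 66 combinations of gene and group, 1 library stood apart from the other 5 by Dixon's test at 95%, which chance gives in about 1 in 20. The genes of a library are not independent, and 3 libraries make up all 11. GF-AOM replicate 6 stood high for Psmb10 (212.059 CPM), Psme1 (234.868 CPM), H2-Aa (849.711 CPM), H2-Eb1 (732.383 CPM), H2-DMa (87.6543 CPM) and H2-DMb1 (125.058 CPM). GF-AOMS replicate 2 stood high for H2-Aa (819.542 CPM) and H2-Eb1 (795.785 CPM). Control replicate 5 stood high for Psmb10 (191.744 CPM), Psme1 (185.152 CPM) and H2-DMb1 (91.2315 CPM). GF-AOM replicate 6 and GF-AOMS replicate 2 had composition factors of 0.831 and 0.721, while Control replicate 5 had 1.16. Summed T and natural killer cell markers were at 98.6 CPM in GF-AOM replicate 6 and 99.3 CPM in GF-AOMS replicate 2, against 23.8 to 54.3 CPM in the other 16 libraries. Summed macrophage and monocyte markers were at 912.8 and 813.3 CPM in these 2 libraries, against 218.5 to 624.0 CPM in the other 16, and smooth muscle markers were at 2721 and 7141 CPM, against 1106 to 4522 CPM. The part of these markers in the levels was not tested.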

How the results depend on the processing

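For the 22 genes given in full, 1796 of the values under the alternatives kept their direction and their side of the threshold, 15 lost a call, 13 gained one and 2 reversed. A difference smaller than its SE was given no direction. The 2 reversals were those of H2-T3 in GF-AOM against Control, at 0.81 with the Hoxa13 and Hoxb13 score and 0.95 without the Control libraries low in Hoxa13. The cause was not tested. The 15 lost calls were all of H2-Q1 in GF-AOMS against Control.

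The number of the 38 genes called in GF-AOM against Control was 2 with DESeq2 and 2 without the libraries with a composition factor under 0.9, against 0. In GF-AOMS against Control it was 2 with DESeq2 (H2-Q1, adjusted p 0.000236, and H2-Q2), 4 without the low-factor libraries, and 0 with limma on either pseudocount (1 and 0.1), the replicate block, only the 2 groups compared, the Hoxa13 and Hoxb13 score, or the Control libraries low in Hoxa13 left out, against 1. Leaving out each library gave 0 to 2, 0 to 0 and 0 to 3 in GF-AOM against Control, GF-AOMS against GF-AOM and GF-AOMS against Control.

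Over all genes, calls in GF-AOM against Control numbered 284 with DESeq2, 0 with limma at either pseudocount, 5 with the FPKM filter (at least 5 in at least 6 libraries), 2 with the replicate block, 0 with only the 2 groups, 0 with the Hoxa13 and Hoxb13 score and 132 without low-factor libraries, against 1. In GF-AOMS against GF-AOM they numbered 3 with DESeq2 and 1 without low-factor libraries, against 0. In GF-AOMS against Control they numbered 375 with DESeq2, 17 and 16 with limma at a pseudocount of 1 and 0.1, 33 with the replicate block, 0 with only the 2 groups, 0 with the Hoxa13 and Hoxb13 score, 277 without low-factor libraries and 0 without the Control libraries low in Hoxa13, against 80. Leaving out each library gave 0 to 356, 0 to 0 and 0 to 493, the highest values without Control replicate 2.

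With the replicate block H2-Q1 in GF-AOMS against Control was -1.28 (edgeR adjusted p = 0.0669). The replicate numbers share no stated source. Over the 3 comparisons, 18 same-number correlations of deviations ran from -0.62 to 0.52, and 7 of them were over 0.1. In 6 of these 18 pairs the library of the reference group correlated best with its own number in the other group. All 6 were in comparisons with Control. Levels of H2-T24, H2-K2 and H2-T-ps, the lowest of the 38 in mean CPM, rest on the fewest counts.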
